A study of Mus musculus with 26 samples.

Results

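MYBQKI is a fusion of MYB, a transcription factor that binds DNA and switches genes on, with QKI, a STAR family protein that binds RNA. Angiocentric glioma, a brain tumour, is where the fusion is known from. QKI is made in several splice forms, which share the RNA-binding KH domain and differ in a short C-terminal tail. The tail of QKI-5 holds a nuclear localization signal, and QKI-6 lacks it and is found in nucleus and cytoplasm. QKI proteins bind target RNAs and act on their splicing, stability and translation, and in the brain they are best known from oligodendrocytes and myelin. The comparison here set cells that overexpressed MYBQKI6 beside cells that overexpressed MYBQKI5, and asked what the QKI splice form changes in the response to the fusion.

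The members were 6 of the 26 arrays of the series: 3 arrays of MYBQKI6 and 3 of MYBQKI5, paired by pool number (pools 1 to 3). All cells were wild-type C57BL6 mouse neural stem cells (mNSC) isolated from embryos at E14.5, and lentivirus delivered the transgene to every sample. In the same pools, 6 arrays carried eGFP, a fluorescent control protein, as repeats R1 and R2 of each pool, 3 arrays carried MYBtr and 3 carried QKItr. The meaning of tr, the promoter of each transgene, whether a pool mixed embryos and whether pools were separate isolations are not given in the labels. The p-values therefore measure no more than the spread between these arrays, which may be technical. A second set of 8 arrays held MYBQKI6 cells with Qk, the mouse gene for QKI, suppressed (5 arrays) or with LacZ suppressed as control (3 arrays). Values are on the log2 scale of the deposited table, where a difference of 1 is 2-fold. A gene's value is the mean of its probe sets, and 23152 genes were tested.

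Several markers of the labelled cell type were high in both groups. Sox2 stood at 10.55 with MYBQKI5 and 10.62 with MYBQKI6, Fabp7 at 10.62 and 10.62, and Vim at 11.50 and 11.58 (means, n = 3 each), all above the 99th percentile of genes. Of the other stem cell markers, Slc1a3, Cdh2, Nes and Notch1 lay at percentiles 99.6, 98.9, 94.2 and 92.8. Hes1, Msi1, Hes5 and Pax6 lay at 77.2, 72.5, 68.3 and 65.8, and Prom1 was near the floor at 3.48 and 3.45. Olig2 and Olig1, of the oligodendrocyte precursor list, were bright as well (percentiles 99.8 and 99.6), while Sox10 of that list lay at 43.4. Bright values of these markers therefore do not single out the labelled cell type. Of the immune markers, Ptprc, the pan-leukocyte marker, was near the floor as well, at 3.74 and 3.69, and Cx3cr1, a receptor of microglia, stood at 5.11 and 5.13. Cd68, a lysosomal protein of macrophages, was the brightest of that list at 6.12 and 5.93, at percentile 66.7 of genes, and was called lower than eGFP (mean 7.04) with both forms. The 12 microglia and immune markers averaged 4.40 to 4.62 over the MYBQKI5 samples and 4.43 to 4.55 over the MYBQKI6 samples. The 13 vascular and fibroblast markers averaged 4.27 to 4.49 and 4.37 to 4.47. Both ranges overlap between the forms.

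The transgene itself was read first. Myb, over 18 probe sets, stood at 6.82, 6.80 and 7.34 with MYBQKI5 in pools 1, 2 and 3, at 7.10, 7.89 and 7.38 with MYBQKI6, and at 4.30, 4.37 and 5.18 with eGFP. Every fusion sample lay above every eGFP sample, and the ranges of the forms overlap. In limma the rise in Myb was 2.37 for MYBQKI5 (adjusted p = 9.8e-05), while that for MYBQKI6 was 2.84 (adjusted p = 9.5e-06). The forms differed by 0.47 (95% interval 0.03 to 0.91, adjusted p = 0.997 in limma), which was not called. By pool, MYBQKI6 minus MYBQKI5 was 0.28, 1.09 and 0.043. In the brightest Myb probe set, 17239679, the forms were closer, at 12.30 and 12.37 on average (a difference of 0.07). It read 12.77, 11.92 and 12.22 with MYBQKI5 and 12.82, 12.39 and 11.91 with MYBQKI6 in pools 1 to 3. As the mean over probe sets, the Myb signal of the MYBQKI6 sample of pool 2 was the highest of the 15 values. In the brightest probe set the MYBQKI6 sample of pool 1 was the highest.

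Qk as a whole gene did not separate the forms. Its mean over 15 probe sets was 10.70, 10.74 and 10.60 with MYBQKI5, and 10.49, 10.79 and 10.74 with MYBQKI6, in pools 1 to 3. The eGFP arrays stood at 10.95, 10.78 and 10.61, so that all ranges overlap. The difference between the forms was -0.01 (95% interval -0.35 to 0.34), and its sign changes under several alternatives given in the closing section.

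A single Qk probe set had by far the largest difference between the forms. Probe set 17340760 read 12.82, 11.84 and 11.76 with MYBQKI5 and 10.93, 11.10 and 10.89 with MYBQKI6. The eGFP values, means of 2 arrays, were 11.23, 11.15 and 11.23, the MYBtr values 10.75, 11.02 and 11.06, and the QKItr values 12.69, 12.39 and 11.68. All MYBQKI5 and QKItr values thus lay above all values of the other 3 constructs. The MYBQKI6 samples lay below eGFP in each pool, and the MYBtr samples did so too. MYBQKI6 was lower than MYBQKI5 by 1.16 (difference -1.16, SE 0.28, 95% interval -1.79 to -0.54, 2.24-fold). That is the same direction in 3 of 3 pools. QKItr minus eGFP was 1.05 in this probe set. Both fusions carry QKI sequence, so a Qk probe set may read the transgene, the cells' own Qk or both. Which of these this probe set reads was not tested.

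The test of this probe set depends on its frame. It is singled out here because it had the largest difference of the Qk probe sets. Its unadjusted and exact p-values do not allow for that choice. Among all 233753 probe sets that name a single gene, its unadjusted p was 0.0018 and its adjusted p 0.89 in limma, so it was not called. An exact permutation test over the 6 samples that ignores the pools gave p = 0.1 (two-sided), the smallest that 3 against 3 allows. The exact test that flips signs within pools gave p = 0.25 (two-sided), the smallest that 3 pairs allow. Against the other Qk probe sets it departed by -1.24. That departure was called by diffSplice of limma (adjusted p = 0.0084), which pools the spread of a gene's probe sets, and was lost without pool 2 (adjusted p = 0.17). With the probe set's own spread it was not called (unadjusted p = 5.9e-04, adjusted p = 0.92). The other 14 Qk probe sets differed between the forms by -0.12 to 0.37, with unadjusted p of 0.25 or more. The table that names the probe sets gives no position within the gene, so which exon each probe set reads was not analysed here.

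**Figure D1:**
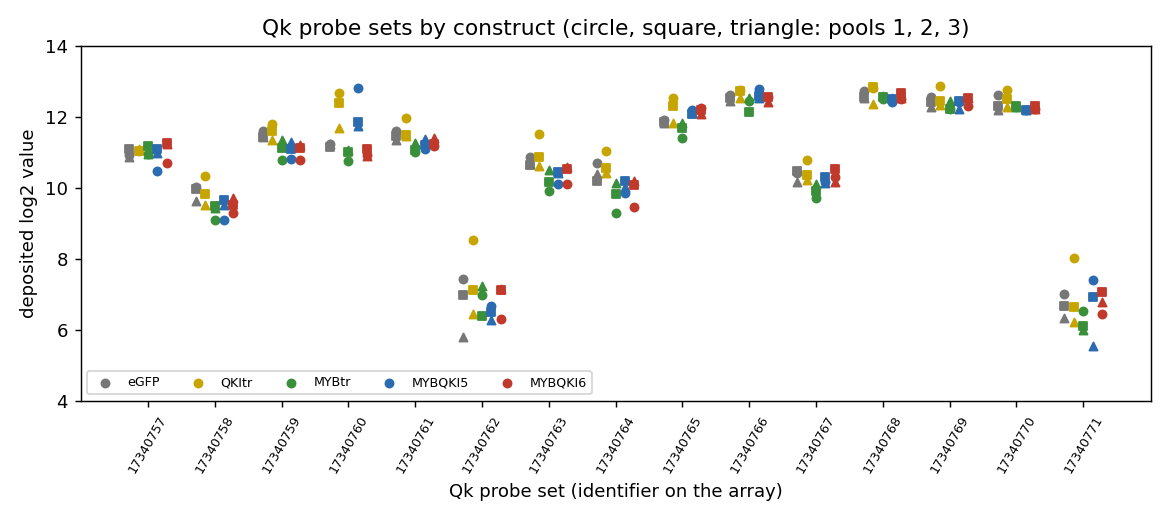
Deposited log2 value (vertical axis) of each of the 15 Qk probe sets (horizontal axis) in every construct and pool. Each point is 1 sample, and eGFP points are means of 2 arrays. In probe set 17340760 the MYBQKI5 and QKItr samples sit between 11.68 and 12.82, all above the MYBQKI6, MYBtr and eGFP samples. In the other probe sets the forms overlap or lie close.

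In the direct comparison of the forms no gene was called: 0 of 23152 genes (0%) had an adjusted p under 0.05 in limma, and the lowest adjusted p was 0.997. At an unadjusted p under 0.05 there were 1017 genes (4.39%), 538 with the higher value in MYBQKI6 and 479 with the higher value in MYBQKI5. Without pool as a block the count of calls was also 0, with 404 genes at an unadjusted p under 0.05. The median difference over all genes was 0.01 and the SD over genes was 0.17. The MYBQKI6 samples did not overlap the MYBQKI5 samples in 1203 genes (5.2%).

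The 95% intervals, each unadjusted and for a single gene, give the range of differences around each estimate. They do not give the size that a call over all genes needed. The 95% interval of the difference reached 0.30 to either side in the median gene, and under 0.49 in 95% of genes. For 22846 genes (98.7%) the whole interval lay within 1 on either side of 0, so that a 2-fold difference lay outside it. A smaller difference than that was not detectable in many genes with 3 pools. Larger differences were not called either, as in Npr3 (1.19) and Sema3c (1.87), each with adjusted p = 0.997 in limma.

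The difference between the forms was hardly shared between pools. Over all genes, the MYBQKI6 minus MYBQKI5 difference of pool 1 correlated with that of pool 2 at r = 0.125, pool 1 with pool 3 at -0.114, and pool 2 with pool 3 at -0.069. These correlations are across 23152 genes, which are not independent replicates, and different arrays enter each pool. The mean response of both forms against eGFP correlated between pools at 0.494, 0.441 and 0.535. Within a pool, the SD over genes between a MYBQKI6 and a MYBQKI5 array was 0.32, 0.29 and 0.27 in pools 1, 2 and 3. Between the repeat eGFP arrays of the same pools it was 0.27, 0.25 and 0.25. An array of one form was thus a little further from the other form than repeat control arrays were from each other. Between MYBQKI6 and MYBtr it was 0.32, 0.26 and 0.26, and between MYBQKI6 and QKItr 0.45, 0.44 and 0.33.

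Both forms changed many genes against eGFP. The mean of both forms called 1266 genes (5.47%), 645 higher (2.79%) and 621 lower (2.68%). MYBQKI5 alone called 609 genes (2.63%), with 1.27% of genes called higher and 1.36% lower. MYBQKI6 alone called 1017 (4.39%), with 2.4% higher and 2% lower, against the same eGFP arrays. QKItr called 0 genes (0%), with 1064 at an unadjusted p under 0.05 in limma. The forms shared 525 called genes, 86.2% of the MYBQKI5 calls and 51.6% of the MYBQKI6 calls, and because both use the same eGFP arrays this overlap is not evidence of its own. None of the 525 had opposite directions.

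The larger count with MYBQKI6 does not by itself mark a difference between the forms. Of the 492 genes called with MYBQKI6 and not with MYBQKI5, 490 had the same sign with MYBQKI5. Of the 84 called with MYBQKI5 and not with MYBQKI6, all 84 had the same sign with MYBQKI6. Both responses use the same eGFP arrays, which favours a like sign, so these counts are not evidence of their own. The direct test called 0 of these 576 genes. For the difference, 78 of the 492 and 19 of the 84 had an unadjusted p under 0.05, against 4.39% of all genes. Picking genes called with 1 form and not the other itself favours such a gap. Leaving out a pool moved the MYBQKI5 count by more than 1.5 times in each case, and the MYBQKI6 count without pool 1 or pool 2. Without pool 2 they were 69 for MYBQKI5 and 51 for MYBQKI6, without pool 1 they were 105 and 183, and without pool 3 they were 213 and 780. Without the pool block they were 46 and 177, and 285 for the mean of both forms.

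**Figure D2:**
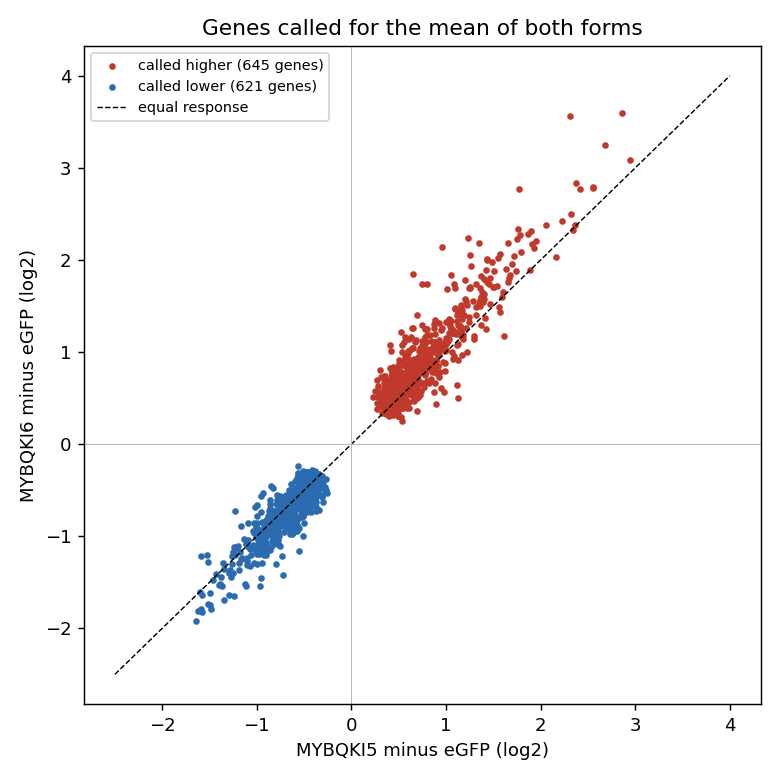
Response to MYBQKI5 (horizontal axis) and MYBQKI6 (vertical axis), each minus eGFP on the log2 scale, of the 1266 genes called for the mean of both forms. Each point is a gene, red for the 645 called higher and blue for the 621 called lower, and the dashed line marks an equal response. Both responses use the same eGFP arrays. Points lie along the line, and most red points sit slightly above it.

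The 10 largest shared rises were all numerically larger with MYBQKI6 in the fit over all pools, by 0.01 in Kif26b to 1.26 in Mup6. They include Myb, which reads the transgene itself, so its rise came from the design. In pool 3 alone Mup6 differed by -0.27, and Zmynd10 and Kit, given below, were also lower with MYBQKI6. Zmynd10, which is needed to assemble the dynein arms of motile cilia, stood at 7.04, 7.80 and 8.08 with MYBQKI5 and 7.57, 8.10 and 7.67 with MYBQKI6, against 4.32, 4.39 and 5.37 with eGFP. Both forms lay above eGFP in every pool and overlapped each other. The rise was 2.94 with MYBQKI5 and 3.08 with MYBQKI6, and the difference of 0.14 had a 95% interval of -0.44 to 0.72. Kit, a receptor tyrosine kinase that binds stem cell factor, stood at 7.76, 8.20 and 8.60 with MYBQKI5, 8.24, 8.64 and 8.43 with MYBQKI6 and 4.99, 5.64 and 6.28 with eGFP. Its rises of 2.55 and 2.80 differed by 0.25 (95% interval -0.15 to 0.64). Kif26b, a kinesin family gene, rose by 2.36 and 2.38, with a difference of 0.01 (95% interval -0.45 to 0.48).

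Prune2 rose with both forms and had the smallest p for the form difference among these 10 rises. Its values were 7.80, 7.99 and 8.08 with MYBQKI5, 8.82, 8.97 and 8.30 with MYBQKI6 and 4.87, 5.44 and 4.98 with eGFP. The MYBQKI6 samples lay above the MYBQKI5 samples without overlap. The rises were 2.86 and 3.60, and the difference was 0.75 (95% interval 0.28 to 1.21, unadjusted p = 0.0042, adjusted p = 0.997 in limma). MYBtr stood at 9.16 on average, above both forms. Fn1, which encodes fibronectin, rose by 2.32 and 2.50, and Dgkg, a diacylglycerol kinase, by 2.42 and 2.77. Irgm2 and Igtp, interferon-induced GTPases, rose by 2.68 and 3.25 and by 2.55 and 2.78. Mup6, of the major urinary protein family, was called with MYBQKI6 (3.57) and not with MYBQKI5 (2.31, adjusted p = 0.080). Its own spread was wide, with 6.08, 2.95 and 4.70 for MYBQKI5 and 7.46, 5.61 and 4.43 for MYBQKI6.

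Among the largest shared falls, Fbxo32, a ubiquitin ligase subunit known from muscle, stood at 7.46, 7.45 and 7.30 with MYBQKI5, 7.40, 6.72 and 7.26 with MYBQKI6, and 9.57, 8.90 and 8.66 with eGFP. It fell by 1.64 and 1.92, and the difference of -0.28 had a 95% interval of -0.75 to 0.19. Rev3l, a translesion DNA polymerase subunit, fell by 1.47 and 1.48, with a difference of -0.01 (95% interval -0.44 to 0.42). Sox8, a SOX family factor active in oligodendrocytes, fell by 1.49 and 1.79, and Kcnma1, a potassium channel, by 1.58 and 1.64. Xylt1, which starts glycosaminoglycan chains, fell by 1.62 and 1.81, Agt, angiotensinogen, by 1.59 and 1.79, Igsf21 by 1.51 and 1.73, and Ttyh1 by 1.50 and 1.62. Smoc1 and Adcyap1r1, the receptor for the peptide PACAP, were called for the mean of both forms (-1.63 and -1.52). With MYBQKI5 alone they were not called, at -1.50 (adjusted p = 0.063) and -1.35 (adjusted p = 0.11). The interval of the form difference included 0 in all 10 falls and in 8 of the 10 rises, with Prune2 and Myb as the exceptions.

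Promoters of 4 genes are printed as examples. Zmynd10 and Kif26b had a like rise under both forms. Prune2 had the smallest p for the form difference among the 10 largest rises. Cd27 had the largest gap of the genes picked for their difference. Each promoter runs from 250 bases before to 50 after the gene's start on the gene's strand, from RefSeq on build GRCm38.p6. The positions are chr9:107547054-107547353, plus strand, for Zmynd10 and chr1:178528875-178529174, plus strand, for Kif26b. They are chr19:16955868-16956167, plus strand, for Prune2 and chr6:125236978-125237277, minus strand, for Cd27. Capitals mark matches, on either strand, to 4 spellings of the MYB binding motif. One spelling is CAACTG, another has the letters CAACGG instead, the third is written TAACTG, and the last of them reads TAACGG.
Zmynd10: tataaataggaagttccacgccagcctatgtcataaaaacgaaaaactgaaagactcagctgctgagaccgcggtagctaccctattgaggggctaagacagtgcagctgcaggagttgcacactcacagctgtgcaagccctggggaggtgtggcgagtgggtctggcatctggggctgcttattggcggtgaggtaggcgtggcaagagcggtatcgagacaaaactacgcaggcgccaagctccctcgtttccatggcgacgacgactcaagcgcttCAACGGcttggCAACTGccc
Kif26b: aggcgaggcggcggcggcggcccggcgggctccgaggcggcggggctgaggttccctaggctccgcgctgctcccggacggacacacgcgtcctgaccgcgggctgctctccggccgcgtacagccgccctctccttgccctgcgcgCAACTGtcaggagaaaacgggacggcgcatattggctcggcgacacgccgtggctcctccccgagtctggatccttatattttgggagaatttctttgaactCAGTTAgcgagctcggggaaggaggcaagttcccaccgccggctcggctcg
Prune2: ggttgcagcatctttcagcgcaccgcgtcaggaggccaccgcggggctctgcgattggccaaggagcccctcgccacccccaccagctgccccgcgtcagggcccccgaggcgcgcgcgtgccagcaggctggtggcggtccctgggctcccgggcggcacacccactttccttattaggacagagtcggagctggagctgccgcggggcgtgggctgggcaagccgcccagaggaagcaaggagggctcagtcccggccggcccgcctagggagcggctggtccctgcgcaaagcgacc
Cd27: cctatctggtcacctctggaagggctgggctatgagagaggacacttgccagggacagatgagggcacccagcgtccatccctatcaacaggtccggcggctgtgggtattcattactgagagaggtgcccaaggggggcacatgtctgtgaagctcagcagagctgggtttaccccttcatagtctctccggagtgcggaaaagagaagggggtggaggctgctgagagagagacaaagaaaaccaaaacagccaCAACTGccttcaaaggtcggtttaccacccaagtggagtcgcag
Zmynd10 and Kif26b held 2 matches each, Cd27 1 and Prune2 0. Kit and Dgkg, also among the 10 largest rises, held 0 in each promoter found, while Irgm2 and Igtp held 1. The printed promoters are examples and do not stand for the other genes. A match is a description of these letters and not a bound site, and no match says only that the letters are not in the window.

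Over all 32851 RefSeq promoters of this length, 28.3% held a match. Of the 682 promoters found for 507 of the 645 rises, 31.8% did, and of the 691 found for 502 of the 621 falls, 20.7%. For the 10 largest rises it was 4 of 10 promoters (40.0%), and for the 10 largest falls 2 of 6 (33.3%). Among the genes picked for a difference between the forms, it was 3 of 13 promoters (23.1%) for those higher with MYBQKI6 and 9 of 19 (47.4%) for those higher with MYBQKI5. The last count rests on 11 genes, and several promoters of a gene can overlap.

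Among the genes called against eGFP, the direct difference stayed small. Its 95% interval lay within 1 on either side of 0 in 1200 of the 1266 genes (94.8%), and 79 (6.24%) had an unadjusted p under 0.05, against 4.39% of all genes. Of the 250 genes with a mean response of at least 2-fold, 195 had such an interval and 23 an unadjusted p under 0.05. In 9 of the 250 the difference between the forms exceeded 0.5 times the mean response.

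A shift common to the rises appeared in pools 1 and 2 and turned in pool 3. In the falls it was seen in pool 2, was slight in pool 1 and also turned in pool 3. Over the 645 rises, the median response was 0.55, 0.67 and 0.70 with MYBQKI5 in pools 1, 2 and 3, and 0.78, 0.95 and 0.58 with MYBQKI6. MYBQKI6 was further from eGFP than MYBQKI5 in 83.6% of the rises in pool 1 and 83.1% in pool 2, but in 24.7% in pool 3. The median difference was 0.26, 0.30 and -0.13, and 0.14 in the fit over all pools. Over the 621 falls, the median response was -0.70, -0.56 and -0.55 with MYBQKI5 and -0.73, -0.71 and -0.47 with MYBQKI6. MYBQKI6 was further from eGFP in 54.8%, 75.4% and 30.9% of them. The median difference of the falls was -0.030, -0.19 and 0.10, and -0.045 over all pools. The genes were chosen by the mean of both forms against eGFP, which does not set the sign of the difference between them.

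Over the 645 rises, MYBtr had the same order of pools as MYBQKI6. MYBtr gave median rises of 0.89, 0.91 and 0.57 in these genes, and QKItr gave 0.011, -0.023 and -0.0042. So pool 3 had the smallest median rise with MYBtr and MYBQKI6 and the largest with MYBQKI5. Over the 621 falls, pool 3 had the weakest median with each of them, at -0.47 with MYBtr, -0.55 with MYBQKI5 and -0.47 with MYBQKI6. All constructs of a pool are set against the same eGFP arrays, while the difference between the forms does not use them. Myb signal above eGFP was 2.52, 2.43 and 2.16 with MYBQKI5 and 2.80, 3.52 and 2.20 with MYBQKI6. As the mean over its probe sets, the gap in Myb signal between the forms was thus largest in pool 2 and smallest in pool 3. The gap in the median rise had the same order. In the brightest Myb probe set MYBQKI6 lay above MYBQKI5 in pools 1 and 2 (12.82 against 12.77, and 12.39 against 11.92). It lay below in pool 3 (11.91 against 12.22). The part of the Myb gap in the response was not tested. In the same 645 and 621 genes, the median difference without pool 3 was 0.26 for the rises and -0.11 for the falls. Without pool 2 they were 0.060 and 0.030, and without pool 1 they were 0.069 and -0.053. When the genes were called anew in the fit without pool 3, the medians were 0.35 and -0.15.

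**Figure D3:**
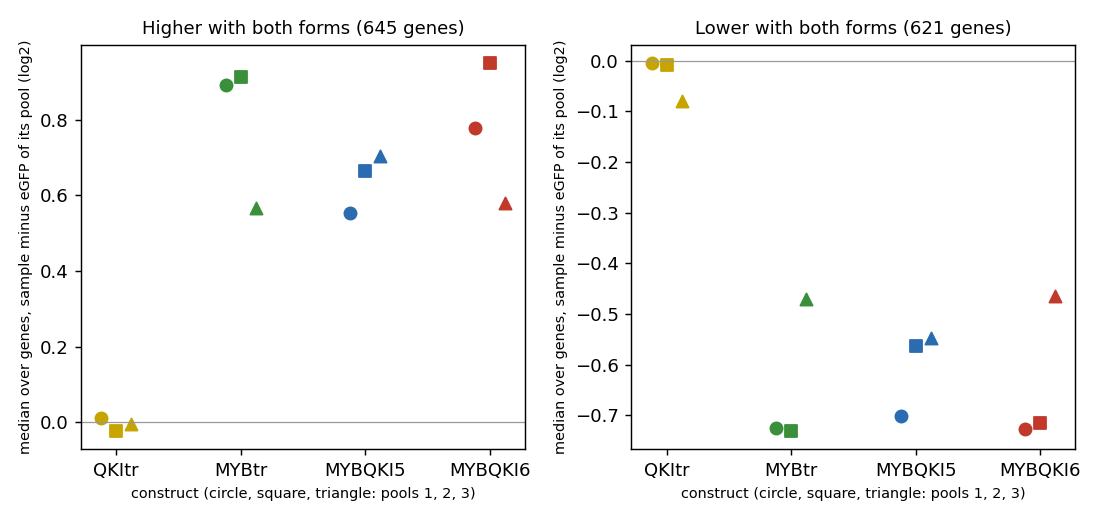
Median over the 645 genes called higher (left) and the 621 called lower (right) for the mean of both forms, as sample minus the eGFP mean of its pool on the log2 scale (vertical axis), by construct (horizontal axis). Each point is 1 sample. MYBQKI6 lies above MYBQKI5 in pools 1 and 2 and below it in pool 3 in the left panel, and QKItr lies near 0.

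The genes with the largest differences of like sign were then picked by rule: the same sign in 3 of 3 pools, an unadjusted p under 0.01, and a mean at or above the 25th percentile of genes, 15 in each direction. The rule used the difference itself, so the values below are a description and none of the 30 genes was called (adjusted p of 0.997). In all, 68 genes met the rule with the higher value in MYBQKI6 and 21 with the higher value in MYBQKI5.

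Genes higher with MYBQKI6 included several that rose with MYBQKI6 against eGFP. Npr3, the clearance receptor for natriuretic peptides, stood at 5.50, 5.15 and 5.24 with MYBQKI5, 6.87, 6.94 and 5.62 with MYBQKI6, and 4.78, 4.62 and 4.51 with eGFP. The forms did not overlap, and pool 3 held the smallest gap. The difference was 1.19 (SE 0.26, 95% interval 0.62 to 1.75, unadjusted p = 4.8e-04). Cd27, a receptor of the tumour necrosis factor receptor family, stood at 3.84, 3.91 and 3.85 with MYBQKI5, 4.43, 6.19 and 4.66 with MYBQKI6 and 3.61, 3.44 and 3.43 with eGFP. Its difference of 1.23 (95% interval 0.38 to 2.07) rests largely on pool 2. MYBtr stood at 5.91 for Cd27 (SD 1.13, n = 3), a mean above every MYBQKI5 sample.

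Mcub, an inhibitory subunit of the mitochondrial calcium uniporter, rose with both forms. It stood at 7.02, 7.02 and 7.47 with MYBQKI5, 8.57, 8.35 and 7.62 with MYBQKI6, and 5.41, 5.36 and 5.45 with eGFP. The difference of 1.01 (95% interval 0.37 to 1.64) was 1.54, 1.33 and 0.14 by pool. Lpo, lactoperoxidase, stood at 6.53, 6.43 and 6.67 with MYBQKI5 and 7.60, 7.35 and 6.71 with MYBQKI6, a difference of 0.67. Tmem41a, a membrane protein gene, had an even gap, at 7.43, 7.49 and 7.80 with MYBQKI5 and 8.08, 8.16 and 8.19 with MYBQKI6. Its difference was 0.57 (95% interval 0.31 to 0.83), with the smallest unadjusted p of the 30 genes (3.1e-04), and eGFP lay at 7.59, 7.73 and 7.70. Tmem178 differed by 0.55 and Ptger4, a receptor for prostaglandin E2, by 0.51.

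Some of these genes were not far from eGFP with either form. F2rl2, which encodes protease-activated receptor 3, stood at 4.09, 4.16 and 4.56 with MYBQKI5 and 4.95, 5.04 and 4.90 with MYBQKI6, on either side of eGFP at 4.26, 4.81 and 4.73. The rest of the 15 were Zbtb8os (0.94), Zfp119a (0.77), Sel1l3 (0.60), Hoxb13 (0.58), B4galnt3 (0.53) and Atp6v1g3 (0.52). Zbtb8os has 1 probe set and Zfp119a 2, and in both the gap was widest in pool 1. The differences of F2rl2, Sel1l3 and B4galnt3 took the opposite sign when only each gene's brightest probe set was used.

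The gene with the largest gap on the other side was Wif1, a secreted inhibitor of Wnt signalling. It stood at 6.23, 6.70 and 6.42 with MYBQKI5, 5.46, 5.82 and 6.18 with MYBQKI6, and 5.22, 5.06 and 5.68 with eGFP. It rose with MYBQKI5 by 1.13 (adjusted p = 0.0041) and was not called with MYBQKI6 (0.50, adjusted p = 0.14). The direct difference was -0.63 (95% interval -0.99 to -0.27, unadjusted p = 0.0024), and it was 0.035 in its brightest probe set alone. Slc2a3, the neuronal glucose transporter, stood at 4.54, 6.59 and 6.60 with MYBQKI5 and 3.86, 5.73 and 6.57 with MYBQKI6. Its spread between pools was larger than its difference of -0.52.

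The other genes on that side were dimmer. Rarg, a retinoic acid receptor, stood at 5.30, 5.42 and 5.42 with MYBQKI5 and 4.84, 4.85 and 5.21 with MYBQKI6, a difference of -0.41. Wdr66 stood at 4.24, 4.47 and 4.42 and at 3.92, 4.02 and 3.89, a difference of -0.43. Aven, an inhibitor of apoptosis, differed by -0.52, Gng13, a G protein subunit, by -0.63, and Cntnap4, a neuronal adhesion protein, by -0.45. The remaining genes were Spata32 (-0.62), Fsbp (-0.58), Clec4n (-0.49), Rnf225 (-0.46), Mrvi1 (-0.41), Magix (-0.41), Clcn1 (-0.41) and Khnyn (-0.40).

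**Figure D4:**
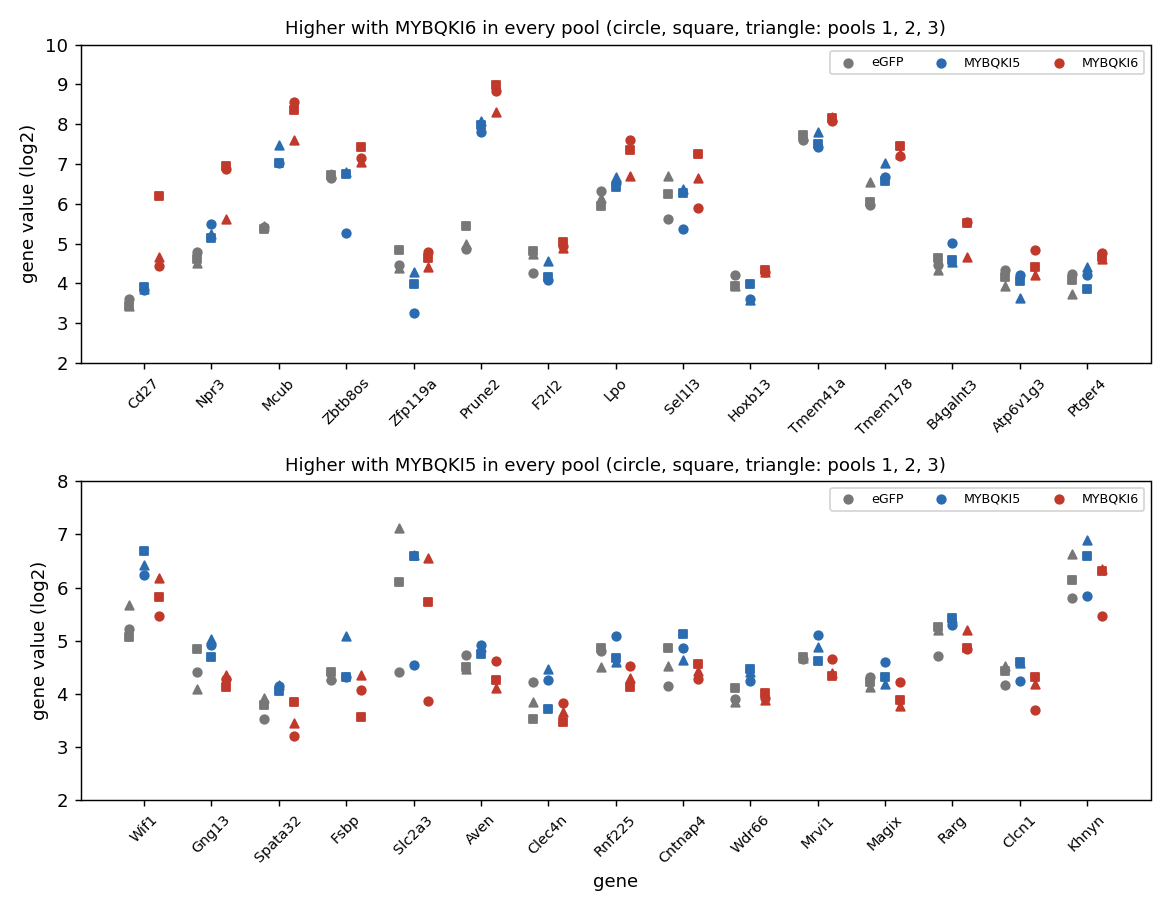
Gene values (log2, vertical axis) of the 30 genes picked for their difference between the forms (horizontal axis), by construct and pool. Each point is 1 sample, and eGFP points are means of 2 arrays. Npr3, Mcub, Prune2 and Tmem41a show MYBQKI6 above MYBQKI5 without overlap, and in Npr3 and Mcub the pool 3 samples lie closest.

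In size alone, 14 genes differed by at least 2-fold, 12 of them higher with MYBQKI6. Of the 14, 8 kept their sign in 3 pools, 7 had 1 or 2 probe sets, and 5 lay below the 25th percentile. The largest was Sema3c, a secreted semaphorin, which the picking rule did not name and which was chosen here after its values were seen. It stood at 5.45, 5.97 and 5.04 with MYBQKI5 and 8.40, 8.48 and 5.20 with MYBQKI6, so that pools 1 and 2 differed by 2.95 and 2.51 and pool 3 by 0.16. Over all pools the difference was 1.87 (95% interval 0.48 to 3.27, unadjusted p = 0.012, adjusted p = 0.997). Without pool 3, limma called 3 genes, all higher with MYBQKI6: Sema3c (2.73, adjusted p = 0.027), Npr3 (1.59, adjusted p = 0.027) and Mcub (1.44, adjusted p = 0.048). Without the MYBQKI6 sample of pool 1 it called Styx, read by 1 probe set, which differed by -0.26, 2.91 and 2.83 in pools 1 to 3. Abca9, a transporter gene read by 30 probe sets, had the same pool pattern as Sema3c, at 1.39, 1.72 and -0.11.

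The gene lists gave 0 called members in any of the 23 lists for the difference between the forms. QKI targets lay close together: of 17 measured, 12 were higher and 5 lower with MYBQKI6, none with an unadjusted p under 0.05. Their median difference was 0.02 (range -0.17 to 0.19), beside a median of 0.01 over all genes. Mbp and Mag, myelin genes bound by QKI, stood near the floor with either form, Mbp at 4.24 (SD 0.26) and 4.07 (SD 0.17) and Mag at 3.74 (SD 0.31) and 3.58 (SD 0.08), n = 3 each. Map1b and Add3, which are expressed here, rose with both forms and differed by 0.16 and 0.19. The 38 measured splicing regulators had a median of 0.04 (range -0.20 to 0.18), and the 5 STAR family members, with Qk, a median of 0.02. None of these had an unadjusted p under 0.05.

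Lists on the MYB side were little different. Of 14 described MYB targets, 10 were higher and 4 lower with MYBQKI6, the median was 0.10, and 3 had an unadjusted p under 0.05, against 4.39% of all genes. Ada, adenosine deaminase, stood at 5.89, 5.60 and 6.05 with MYBQKI5 and 6.47, 6.18 and 6.03 with MYBQKI6, a difference of 0.38. Gstm1 differed by -0.36 without overlap of the samples, and Slc1a5 by 0.35. Cdk6, a cyclin-dependent kinase of G1 phase, rose with both forms, by 1.51 and 1.88, and differed by 0.37 (95% interval -0.05 to 0.80).

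Cell type markers followed the same picture. The 14 oligodendrocyte precursor markers had a median difference of -0.11, with pool medians of -0.24, -0.19 and 0.19. Each form lowered 7 of the 14 against eGFP, where 1.36% of all genes were called lower with MYBQKI5 and 2% with MYBQKI6. For the difference, 3 had an unadjusted p under 0.05, against 4.39% of all genes. These were Neu4, at 5.08, 4.86 and 5.00 with MYBQKI5 and 4.75, 4.56 and 4.68 with MYBQKI6, and the similarly dim Sox10 (-0.27) and Nkx2-2 (-0.34). The 16 astrocyte markers had a median of -0.06, the 17 neuron markers -0.07, the 12 neural stem cell markers -0.01 and the 15 myelinating oligodendrocyte markers 0.04. Nes, the intermediate filament of neural stem cells, fell with both forms, by 0.96 and 1.11, and differed by -0.15 (95% interval -0.53 to 0.23).

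A few lists moved together within single pools. Of 19 interferon response genes, 14 in pool 1, 18 in pool 2 and 1 in pool 3 were higher with MYBQKI6, with pool medians of 0.39, 0.62 and -0.57. Oasl1, an interferon-induced gene, stood at 7.28, 7.39 and 7.66 with MYBQKI5 and 7.91, 8.43 and 7.04 with MYBQKI6. Oas1a, a sensor of double-stranded RNA, stood at 5.04, 5.19 and 5.23 and at 5.67, 6.37 and 4.72. Against eGFP, 7 of the 19 were called higher with MYBQKI5 and 10 with MYBQKI6, and none lower. Over all genes 1.27% were called higher with MYBQKI5 and 2.4% with MYBQKI6. The direct difference had a median of 0.12 over the list, and no member had an unadjusted p under 0.05.

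Cell cycle and cholesterol genes parted in pool 2. Of 17 genes of G2 and M phase, 7, 16 and 2 were lower with MYBQKI6 in pools 1, 2 and 3, with medians of 0.15, -0.86 and 0.24. Bub1b, a mitotic checkpoint kinase, stood at 4.23, 5.86 and 6.49 with MYBQKI5 and 3.94, 4.43 and 6.59 with MYBQKI6. The spread between pools was larger than the gap between forms in both groups, since the list's mean level ran from 4.87 to 7.25 over the MYBQKI5 samples and from 4.93 to 7.47 over the MYBQKI6 samples. Of 12 genes of cholesterol synthesis, 7, 11 and 3 were lower with MYBQKI6, with medians of -0.04, -0.56 and 0.20. Hmgcs1, an early enzyme of that pathway, stood at 8.81, 9.76 and 10.21 and at 8.76, 8.52 and 10.66. Pool 2 is also where the Myb signal, as the mean over its probe sets, differed most between the forms. The part of that gap in these lists was not tested.

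**Figure D5:**
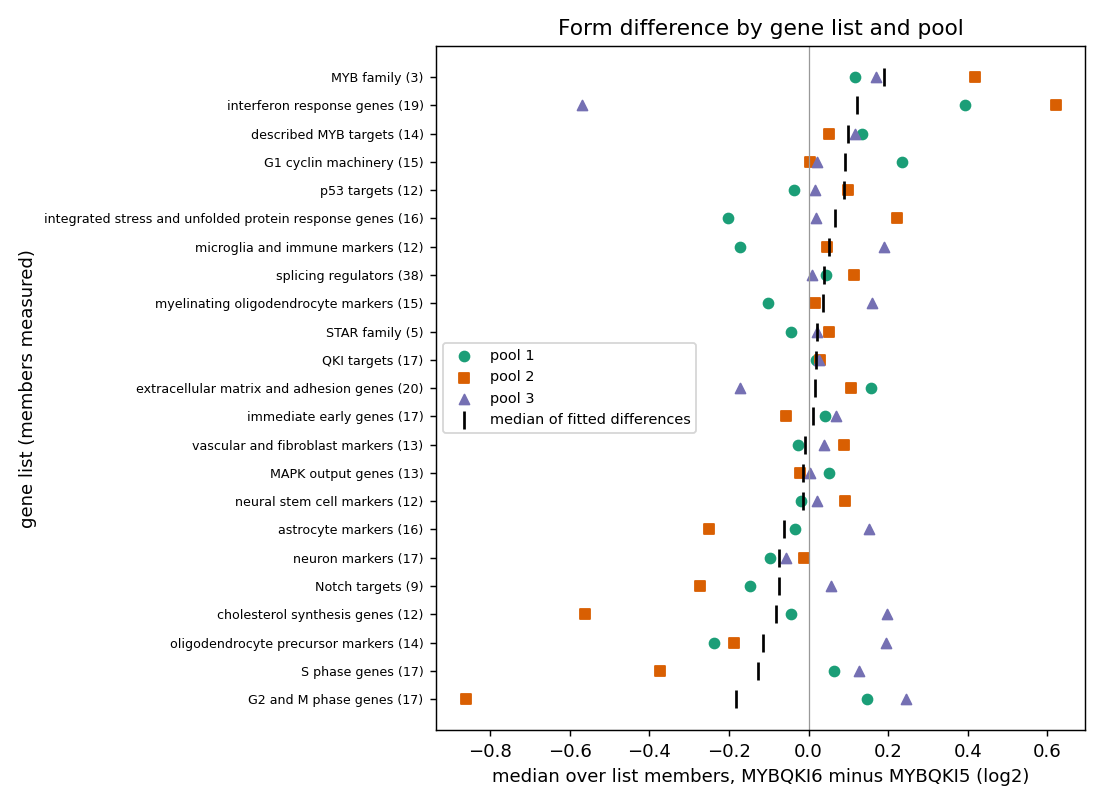
Median difference MYBQKI6 minus MYBQKI5 (log2, horizontal axis) over the measured members of each of the 23 gene lists (vertical axis, with the number of members), in each pool and as the median of the fitted differences (black bars). Interferon response genes sit at 0.39 and 0.62 in pools 1 and 2 and at -0.57 in pool 3. QKI targets sit at 0.02 to 0.03 in every pool.

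Splice forms of an RNA-binding protein could differ in exons more than in whole genes, so each probe set was tested as well. Of 233753 probe sets, 0 were called (0%), with 11474 (4.91%) at an unadjusted p under 0.05 and a lowest adjusted p of 0.82 in limma. For the departure of a probe set from the rest of its gene, diffSplice called 367 of 168926 (0.217%), in 354 of 15519 genes. The test with each probe set's own spread called 0 (0%), with 8356 (4.95%) at an unadjusted p under 0.05.

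The diffSplice calls were set beside a control comparison with no biological contrast named by the labels. On 6 arrays each, diffSplice called 224 probe sets (0.133%) for MYBQKI6 against MYBQKI5 and 190 (0.113%) for eGFP repeat R2 against R1. The own-spread test called 0 in both. The largest departures were in dim probe sets. One of Fibcd1, probe set 17383800, read 2.22, 2.30 and 3.54 with MYBQKI5 and 5.18, 5.26 and 6.02 with MYBQKI6. One of Robo1, a receptor that guides axons, probe set 17326628, read 5.30, 5.49 and 4.75 and then 1.62, 2.17 and 3.94. One of Tardbp, which encodes the splicing regulator TDP-43, probe set 17432989, read 2.06, 2.01 and 3.54 and then 4.50, 5.64 and 4.66. None of the 20 largest departures lay in a probe set as bright as that of Qk.

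The suppression set gave a reading of Qk on arrays that share none with the pools. In MYBQKI6 cells with Qk suppressed, limma called 1 of 23152 genes (0.00432%), the predicted gene Gm5067 (1.83, adjusted p = 0.017), which is not among the genes picked here. In 6 of the 8 fits that each leave out 1 sample, that call was lost. Qk itself was not called: its gene value was 9.35, 9.30, 9.46, 9.70 and 9.58 with Qk suppressed and 9.68, 9.70 and 9.74 with LacZ suppressed, so that the groups overlap. That overlap rests on the Qk-suppressed array at 9.70, and the other Qk-suppressed arrays lay below every LacZ array. Titles of the Qk-suppressed arrays carry differing codes, and those at 9.70 and 9.58 share 1 code. All were fitted as 1 group, and differences between the codes were not tested. The Qk gene difference was -0.22 (adjusted p = 0.999 in limma), and 11 of the 15 Qk probe sets were lower with Qk suppressed, over a range of -0.82 to 0.80. Probe set 17340760 read 9.96, 9.75, 9.63, 9.78 and 10.06 with Qk suppressed and 10.36, 10.11 and 10.14 with LacZ suppressed, without overlap. These levels are not comparable with those of the pools.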

How the data were processed

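Total RNA of mouse neural stem cells was biotin-labelled by the standard Affymetrix protocol, per the labels. The authors deposited log2 values for 269751 probe sets on 26 arrays, and how they were normalized is not given in the sources used here. That the values are log2 was read from their range and from array medians of 5.61 to 5.74 in the pool set. The 2 sets were not compared with each other. The number of arrays limits the precision.

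Probe sets that name 1 symbol alone were averaged per gene (233753 probe sets, median of 8 per gene). Probe sets naming several genes (5106) or none (30892) were left out. Of 23152 symbols, 20875 were current in RefSeq, 2189 were updated and 88 were not matched. Within each pool both eGFP arrays entered as their mean, and the 15 columns of 5 constructs were fitted in limma 3.58.1 (R 4.3.3, data.table version 1.17.8) with pool number as a fixed block (8 residual degrees of freedom). Samples with the same pool number deviated together: their 30 pairs had correlations of 0.311 to 0.723, and the pairs of MYBQKI5 with MYBQKI6 had 0.671, 0.376 and 0.475. The pairing comes from the pool numbers in the titles. Called means a Benjamini-Hochberg adjusted p under 0.05 over all genes or probe sets, and all other p-values are named unadjusted. The suppression arrays were fitted apart. Departures of probe sets used diffSplice on probe sets at or above the 25th percentile, in genes with at least 3 of them. The scripts were tested on simulated data.

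Named were Myb and Qk, the 15 largest differences each way under the rule given in the text, the 10 largest shared rises and falls, up to 4 members of each of 23 lists with the smallest p, and up to 10 probe sets each way. Predicted, clone, olfactory receptor and small RNA names were left out of these ranks. The members, lists and tests were chosen with earlier results of these data known. Alternatives were the block, the summary of probe sets, a filter on dim genes, renewed quantile normalization, moderation settings and samples left out. The own-spread test, the eGFP repeat comparison and the medians over an unchanged set of genes were added after seeing the data. Figures used matplotlib 3.10.9.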

Additional observations from a re-analysis of the deposited data

Results flagged for a closer look

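In 8 of the 138 named items every MYBQKI5 sample lay on one side of eGFP and every MYBQKI6 sample on the other, with 3 pools each. The share of such cases over all genes was not counted, so the 8 are a description. The direct difference was tested in limma and was not called for any of them. The item with the largest difference was Qk probe set 17340760 (-1.16, with 0.93 for MYBQKI5 and -0.23 for MYBQKI6 against eGFP). Next came F2rl2 (0.69, with -0.33 and 0.36), Aven (-0.52, with 0.29 and -0.23), Atp6v1g3 (0.52, with -0.18 and 0.33) and Clec4n (-0.49, with 0.28 and -0.21). Magix (-0.41, with 0.16 and -0.25), Clcn1 (-0.41, with 0.097 and -0.31) and the complement gene C1qb (-0.29, with 0.12 and -0.17) had smaller ones. All but C1qb and the Qk probe set had been picked for their difference by the rule in the text, which itself favours such a pattern. C1qb had been named for its small p within its list. The Qk probe set was singled out for the largest difference among the Qk probe sets. Both sides share the eGFP arrays.

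In 4 of 141 groups looked at, a single sample stood apart from the rest, where chance gives about 1 in 20. Mup6 had 1 eGFP array at 3.14, with the next at 2.20, and B4galnt3 had 1 at 4.84, with the next at 4.47. C1qa had 1 eGFP array at 4.25 below the next at 4.88, and Dusp4 1 at 6.23 below 6.49.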

How the results depend on the processing

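The count of genes called between the forms was 0 under every setting tried that kept all samples, the fits without and with a random replicate block included. With samples left out it ran from 0 to 3, and the genes are named in the text. Counts against eGFP depended more on the processing. For the mean of both forms, MYBQKI5 and MYBQKI6 in turn, they were 285, 46 and 177 without the replicate block, 502, 125 and 311 with the brightest probe set standing for a gene, and 678, 247 and 545 with the median probe set. With a pool left out they ran from 204 to 807, from 69 to 213 and from 51 to 780. Departures by diffSplice were 118 without the replicate block, 72 with probe sets at or above percentile 50, 224 on the 6 arrays, 0 with each probe set's own spread, and 362 to 430 with a pool left out. The suppression count ran from 0 to 1 with a sample left out. The median difference of shared rises ran from 0.029 to 0.35 with samples left out and that of shared falls from -0.15 to 0.092, so the direction of the falls depends on the pools. In these fits the genes were called anew. With the genes of all pools kept, they ran from 0.060 to 0.26 and from -0.11 to 0.030.

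Signs of differences that were not called also turned. With the probe set of the highest mean, they were -0.14 for F2rl2, -0.046 for Sel1l3, -0.61 for B4galnt3, 0.035 for Wif1 and 0.081 for Qk. The Qk gene difference was also 0.0066 after renewed quantile normalization, 0.096 without pool 1, 0.018 without the MYBQKI5 sample of pool 2 and, over the fits that leave samples out, -0.096 (without the MYBQKI6 sample of pool 3) to 0.14 (without that of pool 1). The cause was not tested for any of these. With 3 pools, the interval reached 0.30 to either side in the median gene. Differences smaller than that could not be told from 0 in a typical gene. Larger differences were not called over all genes either, as in Npr3 at 1.19.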
